A study of Mus musculus with 48 samples.

Results

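Donor CD4 T cells from mice given iNKT1 cells were compared with donor CD4 T cells from untreated mice on day 7 after an allogeneic transplant. The comparison used 6 of the 48 samples of the series, namely the 3 columns named for CD4 cells with iNKT1 and the 3 columns named for untreated CD4 cells in the authors' count table of donor T cells. In both groups the T cells were conventional T cells of FVB/N mice that had been transplanted into Balb/C recipients of mismatched tissue type, and they were sorted from spleen and peripheral lymph nodes of mice with graft-versus-host disease. The groups differed in that the iNKT1 group had been treated with iNKT1 cells and the untreated group had received no iNKT cells. Neither the age of these mice nor any further allele or agent is given in the sources used here. CD4 cells from mice treated with iNKT2 or iNKT17 cells, CD4 cells taken before transplantation (day 0), and CD8 cells of the same groups were measured in the same table, with 3 libraries each.

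The iNKT, or invariant natural killer T, lineage carries a nearly invariant antigen receptor that recognises lipids on CD1d. In the mouse thymus they mature into subsets named after the helper T cell classes, and iNKT1 cells are the T-bet-expressing subset that makes interferon-gamma. In graft-versus-host disease donor conventional T cells are activated by host antigens, divide, acquire effector functions and enter host tissues. The comparison asks how donor CD4 T cells differ when the mice have been treated with iNKT1 cells.

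The 6 libraries held between 25323879 and 34698168 counts. The CD4 label held in the data. Cd4, the coreceptor itself, had 1150, 1138 and 1151 CPM in iNKT1 libraries and 1095, 1166 and 948 CPM in untreated libraries, whereas Cd8a, which encodes a CD8 chain, lay between 0.841 and 1.28 CPM in iNKT1 libraries and between 0.541 and 2.61 CPM in untreated libraries. CPM are counts relative to the library's TMM-scaled total. Zbtb16, the transcription factor that marks iNKT cells, had no count in 2 of 3 libraries of each group. Its highest value was 0.168 CPM in iNKT1 libraries and 0.0908 CPM in untreated libraries.

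Untreated library 3 stood apart from the other 5 libraries. On the first principal component of the 12 day 7 CD4 libraries, which held 47.7% of the variance, it had a score of 10.5, against -15.3 to -8.24 in the iNKT1 libraries and -20.1 and -16.7 in the other untreated libraries. With it stood 2 of the 3 iNKT2 libraries and 1 of the 3 iNKT17 libraries. Its Actb level, the beta-actin transcript, was 7836 CPM, against 12546 to 14106 CPM in the iNKT1 libraries and 13534 and 13765 CPM in untreated libraries 1 and 2. The labels name 2 experiments, JL041 and JL042, with 2 samples and 1 sample of each group, but the table's columns do not carry these names, so no value within an experiment could be computed.

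**Figure D1:**
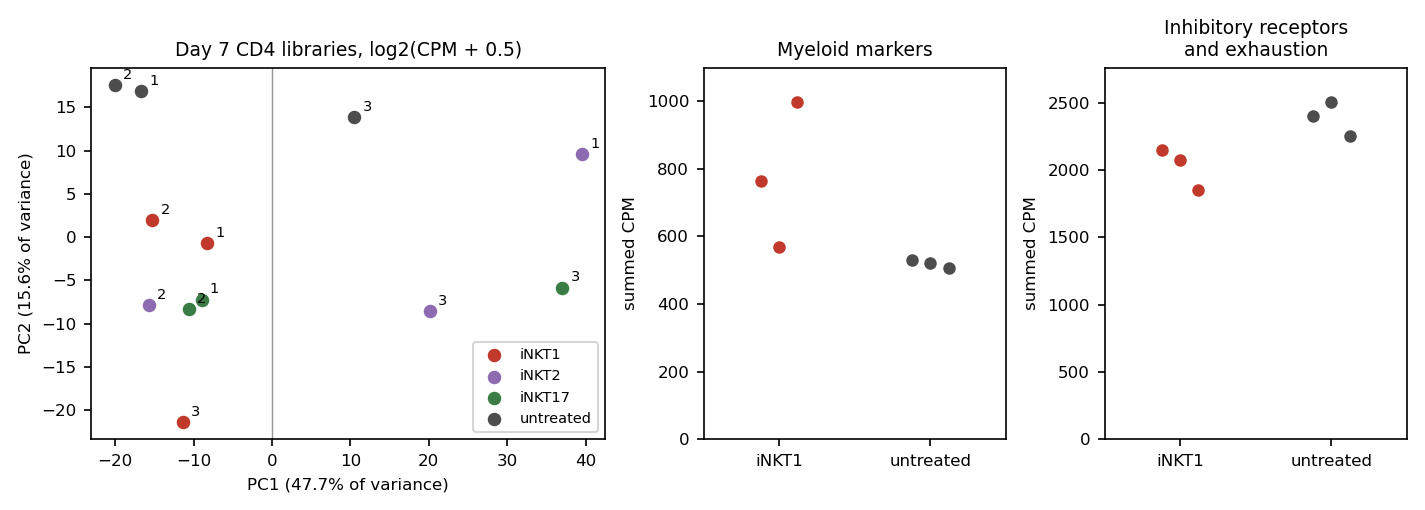
Left, scores of the 12 day 7 CD4 libraries on the first and second principal component of log2(CPM + 0.5), numbered by library and coloured by group. Middle and right, summed CPM of the myeloid marker list and of the inhibitory receptor list in each iNKT1 and untreated library. Untreated library 3 lies right of 0 on the first component, the iNKT1 libraries reach 999 CPM of myeloid markers against at most 529 CPM in untreated libraries, and the inhibitory list sums to less in each iNKT1 library than in any untreated library.

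No gene passed the test between iNKT1 and untreated CD4 cells. With edgeR's quasi-likelihood test over all 15 CD4 libraries, 0 of 15031 genes (0%) had a Benjamini-Hochberg adjusted p under 0.05, and 1008 genes (6.71%) had an unadjusted p under 0.05, of which 532 (3.54%) were higher and 476 (3.17%) lower with iNKT1. The 3 iNKT1 and 3 untreated libraries did not overlap for 2981 genes (19.8%), of which 1400 (9.31%) were higher and 1581 (10.5%) lower. DESeq2 on the same 15 libraries called 123 of 14509 genes (0.848%), 56 higher (0.386%) and 67 lower (0.462%). A further edgeR fit was chosen after seeing the data. It used the day 7 CD4 libraries without the 4 that stood apart, untreated library 3 among them. This fit called 84 of 15269 genes (0.55%), 52 higher (0.341%) and 32 lower (0.21%). With only untreated library 3 left out of the 15 libraries, edgeR called 0 genes, and with all day 7 CD4 libraries it also called 0. DESeq2 and the fit without the 4 libraries had 25 called genes in common, 9 higher and 16 lower with iNKT1. The fits share libraries, so these calls are not independent of each other. The 9 were Dynll1, Tlr1, Parp11, Zdhhc15, Fam169b, S1pr5, Chordc1, Lrrc45 and the predicted gene Gm8113. The 16 were Cirbp, Rbm3, Ctla4, Lnx2, Mt1, Dmbt1, Enpp1, Lrrc29, Serpinb6a, Rpap3, Ppfibp1, Sytl3, Pls1, Stoml1, Pitpnm2 and the predicted gene Gm8369. In what follows an adjusted p without a tool is that of edgeR over 15 libraries, and no gene described as higher or lower in CD4 cells passed that test. The labels do not say whether the libraries of a group come from separate animals, so every p measures only the spread between these libraries.

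Among the clearest differences were those of RNA-binding proteins whose transcripts follow temperature in cultured mammalian cells. Cirbp, the cold-inducible RNA-binding protein, had 49.3, 53.3 and 61.1 CPM in iNKT1 libraries and 169, 141 and 145 CPM in untreated libraries. The ranges were far apart, and untreated library 3 lay between the other untreated libraries. The log2 fold change was -1.48 ± 0.23 (SE), with an adjusted p of 0.119 by edgeR, 2.46e-06 by DESeq2, and 0.0342 by edgeR without the 4 libraries that stood apart. In bulk libraries such as these, fewer cells of a type and less RNA per cell cannot be told apart. Cirbp lies on chromosome 10 at 80165990 to 80172786 (GRCm38.p6). Rbm3, its close relative and also induced by cold, had 430, 529 and 488 CPM in iNKT1 libraries and 759, 682 and 585 CPM in untreated libraries. Every iNKT1 library was below every untreated library, by a log2 fold change of -0.49 ± 0.13 (SE) and with adjusted p values of 0.415 by edgeR and 0.0362 by DESeq2.

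Several splicing regulators of the same list lay in the opposite direction. Tra2b, a splicing activator that binds purine-rich exonic sequences, had 250, 275 and 218 CPM in iNKT1 libraries and 183, 163 and 130 CPM in untreated libraries (log2 fold change 0.64 ± 0.17 SE, adjusted p = 0.415 by edgeR, 0.0481 by DESeq2 and 0.074 without the 4 libraries). Srsf7, a serine- and arginine-rich splicing factor, had 72.3, 58.4 and 54.2 CPM in iNKT1 libraries and 23.5, 37.7 and 39 CPM in untreated libraries. Srsf10, a splicing factor that is dephosphorylated on heat shock, averaged 138 ± 7.61 CPM in iNKT1 libraries and 106 ± 8.94 CPM in untreated libraries (SD, n = 3 each). In all 3 of these genes the lowest iNKT1 library lay above the highest untreated library. Of the 17 tested members of the list of cold-induced and serine/arginine-rich RNA-binding proteins, 0 were called by edgeR. Libraries did not overlap for 5 members that were higher and 2 that were lower, against 9.31% and 10.5% of all genes. DESeq2 called 1 of 17 higher (Tra2b) and 2 lower (Cirbp and Rbm3), beside 0.386% and 0.462% of all genes. Hnrnpdl, another RNA-binding protein of the list, averaged 84.2 ± 14.6 CPM in iNKT1 libraries and 126 ± 25.7 CPM in untreated libraries (SD, n = 3 each) with overlapping ranges, and was called lower in the fit without the 4 libraries (adjusted p = 0.048) but not by DESeq2 (0.326).

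Heat shock chaperones, the proteins that keep others folded under heat and stress, were mostly higher with iNKT1. Of 20 tested members 18 had a positive fold change, with a median log2 fold change of 0.165 beside 0.0082 over all genes, and no member was called by edgeR. Chordc1, an Hsp90 cochaperone, had 125, 114 and 117 CPM in iNKT1 libraries and 80.1, 84.4 and 88.6 CPM in untreated libraries. The groups were well apart, with a log2 fold change of 0.49 ± 0.13 (SE) and adjusted p values of 0.415 by edgeR, 0.0296 by DESeq2 and 0.045 without the 4 libraries. Hsph1, a large chaperone that acts as a nucleotide exchange factor for Hsp70, had 150, 123 and 117 CPM in iNKT1 libraries and 69.6, 79.7 and 109 CPM in untreated libraries. Dnaja1, a J-domain partner of Hsp70, had 376, 326 and 395 CPM in iNKT1 libraries and 245, 253 and 296 CPM in untreated libraries. For both genes untreated library 3 was the untreated library nearest to the iNKT1 group, and both were called in the fit without the 4 libraries (adjusted p = 0.035 for Hsph1 and 0.0479 for Dnaja1) but not by DESeq2 over 15 libraries (0.237 and 0.327). Fkbp4, an Hsp90-binding immunophilin, averaged 154 ± 8.41 CPM in iNKT1 libraries and 117 ± 7.39 CPM in untreated libraries, and Hspa8, the constitutive Hsp70, averaged 654 ± 53.1 CPM in iNKT1 libraries and 508 ± 66.3 CPM in untreated libraries (SD, n = 3 each). Including Cacybp at 125 to 128 CPM in iNKT1 libraries and 114 to 124 CPM in untreated libraries, 6 members were higher without overlap, and Hsf2, a heat shock transcription factor, was lower without overlap, beside 9.31% and 10.5% of all genes.

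The upstream sequences of the chaperone genes were searched because these genes lay in one direction and heat shock factors bind inverted repeats of GAA and TTC. The element of GAA, any 2 bases, TTC, any 2 bases and GAA, read on both strands, was not found in the 250 bases upstream of any start of Chordc1, Hsph1, Dnaja1, Fkbp4 or Cirbp in RefSeq (GRCm38.p6). It occurred in 153 of 32841 upstream windows (0.466%). The shorter palindrome TTCNNGAA, whose letters are part of the longer element, occurred in 2354 windows (7.17%), and of these 5 genes only Hsph1 held it. The other palindrome within the longer element, GAANNTTC, was not counted over the windows. Its letters do occur upstream of a start of Dnaja1 and upstream of Fkbp4. Hspa8 and Rbm3 had no upstream sequence in the source used. The sequence upstream of its start is shown with the palindrome in capitals, from chr5:149636316-149636565 on the minus strand, 5′ to 3′, in the reference genome and not in FVB/N cells.
Hsph1: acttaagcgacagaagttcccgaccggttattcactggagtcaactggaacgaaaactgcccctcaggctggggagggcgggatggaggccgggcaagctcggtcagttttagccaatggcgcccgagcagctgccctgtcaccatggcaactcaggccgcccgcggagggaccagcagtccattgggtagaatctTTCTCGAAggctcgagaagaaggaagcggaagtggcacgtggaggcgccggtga
The capitals begin 54 bases upstream of the start.

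**Figure D2:**
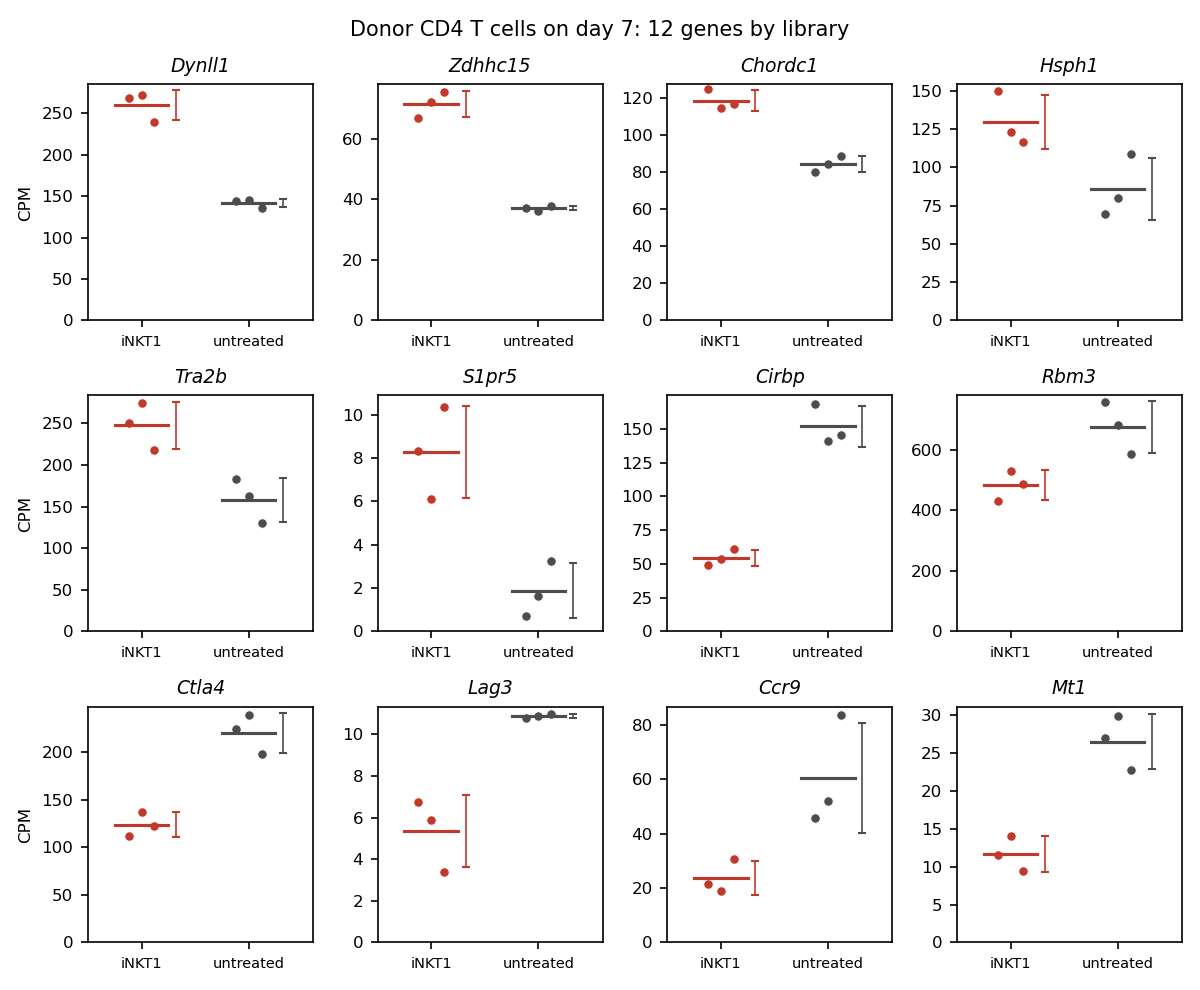
CPM of 12 genes in the 3 iNKT1 and 3 untreated CD4 libraries (points), with the group mean (line) and its SD (bar) and each axis starting at 0. The first 6 genes lie higher in every iNKT1 library and the last 6 lie lower in every iNKT1 library.

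Inhibitory receptors and transcription factors of exhausted or terminally differentiated T cells were lower with iNKT1 in several members. Ctla4, the receptor that competes with CD28 for CD80 and CD86, had 112, 138 and 122 CPM in iNKT1 libraries and 225, 240 and 198 CPM in untreated libraries. The highest iNKT1 library was well below the lowest untreated library, which was library 3. The log2 fold change was -0.83 ± 0.15 (SE), with adjusted p values of 0.228 by edgeR, 2.31e-05 by DESeq2 and 0.0259 without the 4 libraries. Lag3, an inhibitory receptor for MHC class II, had 6.75, 5.89 and 3.4 CPM in iNKT1 libraries and 10.8, 10.9 and 11 CPM in untreated libraries. It was called by DESeq2 (adjusted p = 0.0471) and not by edgeR over 15 libraries (0.438) or without the 4 libraries (0.146). Prdm1, which encodes the repressor Blimp-1, averaged 42.3 ± 1.5 CPM in iNKT1 libraries and 57.6 ± 8.3 CPM in untreated libraries (SD, n = 3 each). Tox, a factor of exhausted T cells, had 69, 46 and 47.7 CPM in iNKT1 libraries and 79, 79.4 and 70 CPM in untreated libraries, with iNKT1 library 1 close to untreated library 3.

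Tox2, a relative of Tox, was lower without overlap at 28.3 to 40.6 CPM in iNKT1 libraries and 46.8 to 50.8 CPM in untreated libraries, and Cd160 was lower by a narrow margin. Several well-known members of the list overlapped between groups. Pdcd1, which encodes PD-1, had 438, 465 and 237 CPM in iNKT1 libraries and 638, 617 and 400 CPM in untreated libraries. Havcr2, which encodes Tim-3, had 103, 84.1 and 39.4 CPM in iNKT1 libraries and 101, 138 and 100 CPM in untreated libraries. Tigit averaged 104 ± 32.9 CPM in iNKT1 libraries and 135 ± 15.4 CPM in untreated libraries (SD, n = 3 each). In Pdcd1 and Havcr2 iNKT1 library 3 was the lowest of all 6 libraries. Cd274, which encodes the PD-1 ligand PD-L1, lay the other way, at 54.2 to 63.8 CPM in iNKT1 libraries and 48.7 to 50 CPM in untreated libraries. Of 23 tested members of the list 6 were lower without overlap and 1 was higher, beside 10.5% and 9.31% of all genes, the median log2 fold change was -0.182, and the summed level was 1853 to 2146 CPM in iNKT1 libraries and 2253 to 2507 CPM in untreated libraries. DESeq2 called 2 of 23 members, Ctla4 and Lag3, both lower, beside 0.462% of all genes called lower.

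Genes of follicular helper cells, the CD4 cells that help B cells, were also lower in most members. A positive fold change was seen in 4 of 14, with a median log2 fold change of -0.321 beside 0.0082 over all genes. Icos, a costimulatory receptor related to CD28, had 545, 552 and 432 CPM in iNKT1 libraries and 647, 719 and 595 CPM in untreated libraries. Cd200, a surface ligand of an inhibitory receptor on myeloid cells, had 13, 11.6 and 10.4 CPM in iNKT1 libraries and 17.4, 21.8 and 17.4 CPM in untreated libraries. Slamf6, an adhesion receptor of T and B cells, averaged 635 ± 35.9 CPM in iNKT1 libraries and 791 ± 71.5 CPM in untreated libraries (SD, n = 3 each). All 3 were lower without overlap, with adjusted p values of 0.698, 0.415 and 0.75. Of the 14 tested members 4 were lower and 1 was higher without overlap, beside 10.5% and 9.31% of all genes. Cd40lg, the helper ligand for CD40, was higher without overlap, at 129 to 164 CPM in iNKT1 libraries and 109 to 126 CPM in untreated libraries, and Bcl6, the factor that directs the follicular helper program, overlapped at 6.53 to 9.77 CPM in iNKT1 libraries and 4.85 to 8.29 CPM in untreated libraries. No member was called by edgeR or by DESeq2.

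The regulators and cytokines of the helper lineages overlapped between groups. Tbx21, which encodes T-bet, had 571, 472 and 439 CPM in iNKT1 libraries and 376, 408 and 464 CPM in untreated libraries. Ifng, its cytokine target, averaged 48.5 ± 16 CPM in iNKT1 libraries and 46.9 ± 3.54 CPM in untreated libraries (SD, n = 3 each). Gata3, the Th2 regulator, had 174, 168 and 302 CPM in iNKT1 libraries and 157, 120 and 240 CPM in untreated libraries. In each of the 5 CD4 groups library 3 was the highest for Gata3 and for Il4. Il4 reached 5.32 CPM in iNKT1 libraries and 4.21 CPM in untreated libraries, in library 3 of each, with the other libraries at 1.35 to 2 CPM. Foxp3, the regulatory T cell factor, had 9.63, 8.53 and 14.7 CPM in iNKT1 libraries and 11.2, 10.6 and 9.46 CPM in untreated libraries, with a log2 fold change of 0.07 ± 0.40 (SE). Il17a had no count in any of the 6 libraries and was not tested. Of 14 tested Th17 members 1 had a positive fold change, with a median log2 fold change of -0.5. One of them, Ccr6, a chemokine receptor of Th17 cells, was lower without overlap, at 0.481 to 1.93 CPM in iNKT1 libraries and 2.24 to 4.09 CPM in untreated libraries.

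Cytotoxic genes were split. Prf1, the pore-forming protein perforin, had 118, 108 and 58.4 CPM in iNKT1 libraries and 141, 178 and 186 CPM in untreated libraries, lower without overlap at an adjusted p of 0.462. Gzmb, which encodes granzyme B, had 494, 537 and 184 CPM in iNKT1 libraries and 674, 684 and 528 CPM in untreated libraries, which overlapped. Gzmm, another granzyme, was higher without overlap, at 10.7 to 15.1 CPM in iNKT1 libraries and 7.61 to 9.78 CPM in untreated libraries, as was Tnfsf10, the death ligand TRAIL, at 37.1 to 55.4 CPM in iNKT1 libraries and 17.1 to 26.4 CPM in untreated libraries. Ccl3, a chemokine of activated T cells, averaged 27.7 ± 14.1 CPM in iNKT1 libraries and 48 ± 7.82 CPM in untreated libraries (SD, n = 3 each), with 1 iNKT1 library at 44 CPM inside the untreated range. No member of the cytotoxicity list was called by edgeR or by DESeq2. Of its 17 tested members 3 were higher and 2 lower without overlap, beside 9.31% and 10.5% of all genes. Klrg1, a receptor of short-lived effector cells, had 47, 42.7 and 96.2 CPM in iNKT1 libraries and 19.5, 20.5 and 36.6 CPM in untreated libraries, a log2 fold change of 1.28 ± 0.43 (SE) at an adjusted p of 0.542. Cd226, the activating counterpart of Tigit, had 29.6, 38.5 and 50.2 CPM in iNKT1 libraries and 23.1, 26.9 and 25.4 CPM in untreated libraries.

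Among receptors that steer T cells to tissues, Ccr9 was lower and S1pr5 higher. Ccr9, the receptor for the small-intestinal chemokine CCL25, had 21.4, 19.1 and 30.8 CPM in iNKT1 libraries and 45.7, 52.1 and 83.5 CPM in untreated libraries. The log2 fold change was -1.35 ± 0.28 (SE), with adjusted p values of 0.305 by edgeR, 0.00257 by DESeq2 and 0.06 without the 4 libraries. S1pr5, a receptor for sphingosine 1-phosphate, had 8.33, 6.13 and 10.4 CPM in iNKT1 libraries and 0.726, 1.65 and 3.25 CPM in untreated libraries. Its log2 fold change was 2.15 ± 0.47 (SE), with adjusted p values of 0.33 by edgeR, 0.00341 by DESeq2 and 0.0274 without the 4 libraries. Gpr15, a receptor that guides T cells to the large intestine, had 27.6, 58.6 and 62.6 CPM in iNKT1 libraries and 16.8, 14.2 and 28.9 CPM in untreated libraries, which overlapped by 1 library in each group (adjusted p = 0.415 by edgeR, 0.0411 by DESeq2 and 0.118 without the 4 libraries). Over the 32 members of the homing list 2 were higher and 2 lower without overlap, beside 9.31% and 10.5% of all genes, and the median log2 fold change was -0.0154. The list as a whole thus did not exceed the share of all genes. Ccr7, a chemokine receptor that guides T cells into lymph nodes, averaged 132 ± 1.34 CPM in iNKT1 libraries and 147 ± 16.2 CPM in untreated libraries, and Ccr2, a receptor for inflammatory chemokines, averaged 559 ± 93.3 CPM in iNKT1 libraries and 435 ± 40.8 CPM in untreated libraries (SD, n = 3 each).

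Genes of naive and quiescent cells did not share a direction. Of 20 tested members 2 were higher and 3 lower without overlap, beside 9.31% and 10.5% of all genes. Btg2, an antiproliferative gene, was higher without overlap, at 609, 611 and 583 CPM in iNKT1 libraries and 430, 415 and 488 CPM in untreated libraries, and was called without the 4 libraries (adjusted p = 0.0387) but not by DESeq2 (0.0595). Il7r, the receptor for interleukin 7, was lower without overlap, at 382, 527 and 455 CPM in iNKT1 libraries and 724, 556 and 659 CPM in untreated libraries. Lef1, a transcription factor of naive T cells, averaged 299 ± 31.1 CPM in iNKT1 libraries and 374 ± 42.8 CPM in untreated libraries (SD, n = 3 each), while its relative Tcf7 had 387, 395 and 446 CPM in iNKT1 libraries and 377, 365 and 435 CPM in untreated libraries.

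In the cell cycle list, D-type cyclins, which start the G1 phase, stood out. Ccnd2 had 281, 256 and 357 CPM in iNKT1 libraries and 220, 169 and 175 CPM in untreated libraries (log2 fold change 0.66 ± 0.16 SE, adjusted p = 0.397 by edgeR, 0.0145 by DESeq2 and 0.146 without the 4 libraries). Ccnd3 had 570, 546 and 546 CPM in iNKT1 libraries and 381, 354 and 436 CPM in untreated libraries (adjusted p = 0.475 by edgeR, 0.169 by DESeq2 and 0.0274 without the 4 libraries). Neither gene overlapped between groups. The list as a whole lay slightly the other way, with 16 of 44 members positive and a median log2 fold change of -0.0774. Without overlap 3 of the 44 were higher and 1 was lower, beside 9.31% and 10.5% of all genes. Mki67, the marker of cycling cells, had 58.7, 84.4 and 77.4 CPM in iNKT1 libraries and 83.2, 103 and 50.9 CPM in untreated libraries, and Mcm6, a subunit of the replicative helicase, averaged 271 ± 19.6 CPM in iNKT1 libraries and 348 ± 54.5 CPM in untreated libraries (SD, n = 3 each), both with overlap.

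Nuclear-encoded genes of oxidative phosphorylation and genes of glycolysis were lower in most members. The direction of the mitochondrially encoded genes depended on the libraries used. Of 42 nuclear-encoded oxidative phosphorylation genes 11 were lower and 0 higher without overlap, against 10.5% and 9.31% of all genes, while 15 had a positive fold change, with a median log2 fold change of -0.0658 and no call by edgeR, DESeq2 or edgeR without the 4 libraries. Atp5a1, a subunit of the ATP synthase, had 437, 470 and 437 CPM in iNKT1 libraries and 506, 507 and 510 CPM in untreated libraries. Ndufv1, a subunit of complex I, lay at 119 to 124 CPM in iNKT1 libraries and 138 to 163 CPM in untreated libraries. Of the 13 mitochondrially encoded genes 9 had a positive fold change, with a median of 0.136 and none without overlap. Without the 4 libraries that stood apart their median was -0.0756. They summed to 3642, 5552 and 5146 CPM in iNKT1 libraries and 5650, 5124 and 3450 CPM in untreated libraries, lowest in untreated library 3. The glycolysis list had 6 of 23 members lower without overlap and 0 higher. A positive fold change was seen in 6 of the 23, with a median of -0.135. Pfkp, a phosphofructokinase, had 456, 390 and 351 CPM in iNKT1 libraries and 494, 526 and 515 CPM in untreated libraries. Hif1a, the hypoxia-induced factor that drives glycolytic genes, had 437, 529 and 424 CPM in iNKT1 libraries and 551, 670 and 669 CPM in untreated libraries. Slc2a1, the glucose transporter GLUT1, lay at 80 to 95.9 CPM in iNKT1 libraries and 103 to 116 CPM in untreated libraries. The adjusted p values of these 3 genes were 0.695, 0.717 and 0.75.

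Interferon-stimulated genes were higher in most members, with a positive fold change in 42 of 53 and a median log2 fold change of 0.138. Oas1a, an enzyme that senses double-stranded RNA and makes 2′-5′-linked oligoadenylates, had 84.7, 101 and 97.7 CPM in iNKT1 libraries and 58.1, 63.4 and 61.3 CPM in untreated libraries. The groups were well apart, with a log2 fold change of 0.63 ± 0.15 (SE) and adjusted p values of 0.397 by edgeR, 0.0145 by DESeq2 and 0.0519 without the 4 libraries. Its relatives Oas2, Oas3 and Oasl2 were higher without overlap too. Oas3 had 57.5, 82.5 and 89.5 CPM in iNKT1 libraries and 45.7, 41.8 and 54.2 CPM in untreated libraries. In all, 10 of 53 members were higher without overlap and 1 was lower, beside 9.31% and 10.5% of all genes, and DESeq2 called 1 of 53, Oas1a, beside 0.848% of all genes. Gbp2, a guanylate-binding protein induced by interferon-gamma, lay at 160 to 166 CPM in iNKT1 libraries and 120 to 154 CPM in untreated libraries, and Isg15, a ubiquitin-like modifier, lay at 19.4 to 22.6 CPM in iNKT1 libraries and 12 to 17.9 CPM in untreated libraries.

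The upstream sequences of 3 of these genes are shown because they hold the interferon-stimulated response element. It was searched as GAAA, any 2 bases and GAAA on both strands in the 250 bases before each RefSeq start, and 978 of 32841 windows (2.98%) held it. Overlapping matches are merged in the capitals. Oasl2 had no match in its window, and Oas2 had no upstream sequence in the source used. Oas3 and the other members of the list were not searched. The windows are, in GRCm38.p6, chr5:120907526-120907775 on the minus strand for Oas1a, chr3:142620413-142620662 on the plus strand for Gbp2, and chr4:156200819-156201068 on the minus strand for Isg15, all written 5′ to 3′ towards the start.
Oas1a: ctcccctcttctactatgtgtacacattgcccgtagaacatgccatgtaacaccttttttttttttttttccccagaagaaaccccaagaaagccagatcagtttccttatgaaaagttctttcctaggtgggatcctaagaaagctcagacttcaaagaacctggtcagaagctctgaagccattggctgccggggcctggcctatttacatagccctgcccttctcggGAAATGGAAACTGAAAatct
Gbp2: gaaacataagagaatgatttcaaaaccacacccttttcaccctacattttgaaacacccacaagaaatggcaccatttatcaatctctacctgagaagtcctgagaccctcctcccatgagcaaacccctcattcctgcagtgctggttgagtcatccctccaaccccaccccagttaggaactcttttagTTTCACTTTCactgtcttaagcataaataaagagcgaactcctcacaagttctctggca
Isg15: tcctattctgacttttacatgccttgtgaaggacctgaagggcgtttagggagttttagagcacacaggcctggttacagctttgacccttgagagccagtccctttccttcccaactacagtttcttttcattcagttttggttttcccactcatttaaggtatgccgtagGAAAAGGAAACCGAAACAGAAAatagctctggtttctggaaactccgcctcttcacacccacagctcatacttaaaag
The window of Isg15 holds 3 overlapping matches, that of Oas1a holds 2 and that of Gbp2 holds 1. A match in these letters is a description of the reference sequence and not a measured binding site.

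**Figure D3:**
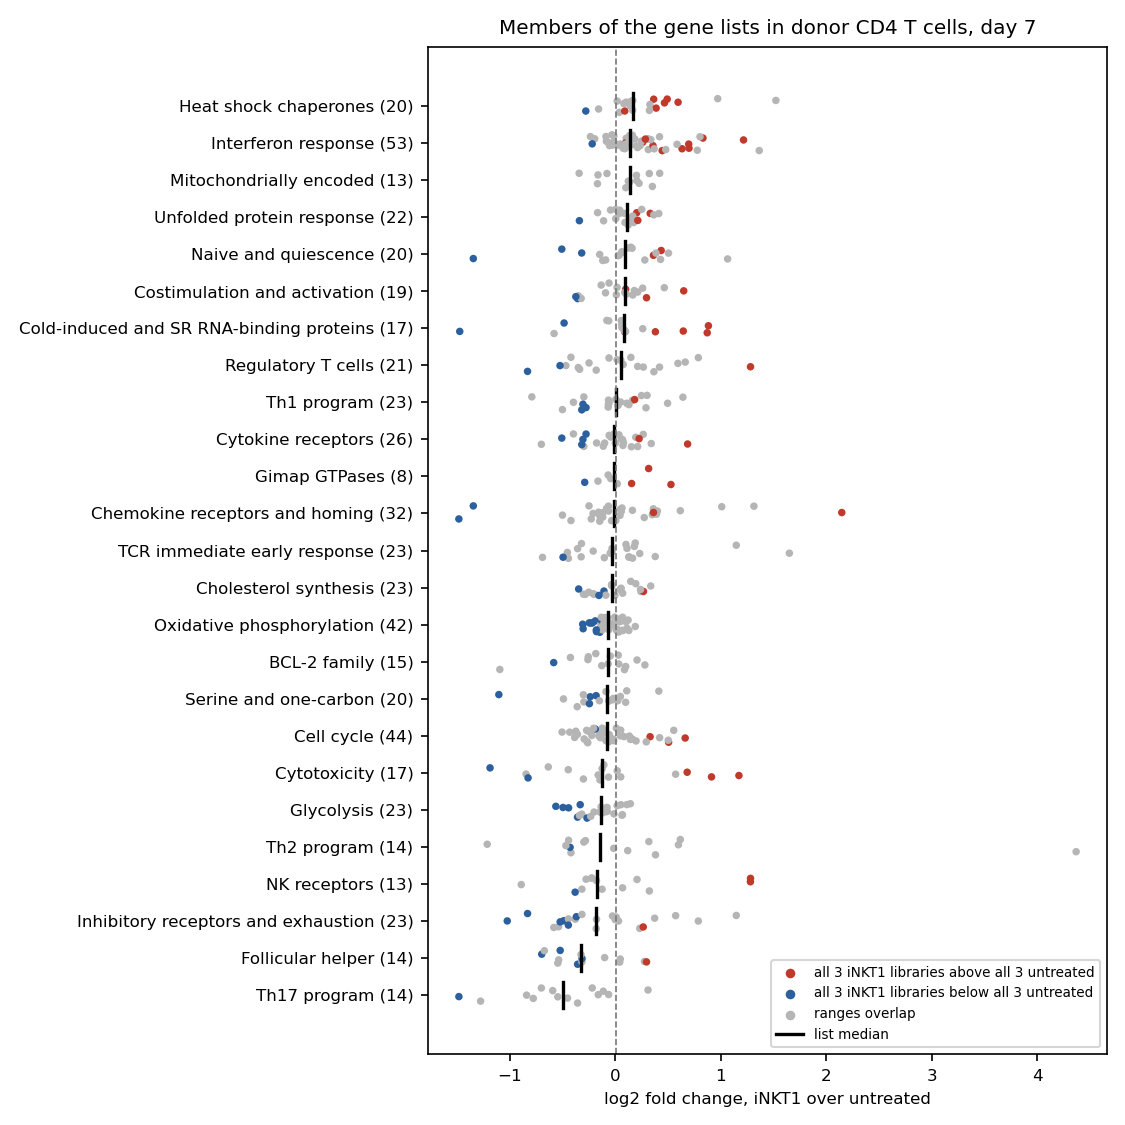
Log2 fold change, iNKT1 over untreated, of each tested member (point) of the 25 gene lists, with the number tested in brackets, the list median (black line) and the median of all genes (dashed line). Red and blue points are members whose iNKT1 libraries all lie above or all below the untreated libraries. Heat shock chaperones and interferon response genes lie mostly right of the line of all genes, and follicular helper, inhibitory receptor and Th17 genes mostly left of it.

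Several genes with the smallest p values belonged to no list. Dynll1, a dynein light chain that also binds many other proteins, had 269, 272 and 240 CPM in iNKT1 libraries and 144, 145 and 136 CPM in untreated libraries. The spread within groups was small beside the gap, with a log2 fold change of 0.87 ± 0.13 (SE) and adjusted p values of 0.119 by edgeR, 2.46e-06 by DESeq2 and 0.0274 without the 4 libraries. Zdhhc15, a palmitoyltransferase, had 67, 72.2 and 75.5 CPM in iNKT1 libraries and 37.1, 36.3 and 37.7 CPM in untreated libraries. Lnx2, a ubiquitin ligase, had 87.8, 82.4 and 76.3 CPM in iNKT1 libraries and 120, 124 and 118 CPM in untreated libraries, at an adjusted p of 0.274 by edgeR and 2.26e-08 by DESeq2. Mt1, a metallothionein that binds zinc and copper, had 11.6, 14.1 and 9.42 CPM in iNKT1 libraries and 27, 29.8 and 22.7 CPM in untreated libraries, a log2 fold change of -1.18 ± 0.24 (SE). In these 4 genes untreated library 3 lay with the other untreated libraries. Sytl3, a Rab27-binding protein of secretory granules, had 124, 166 and 144 CPM in iNKT1 libraries and 270, 231 and 215 CPM in untreated libraries. The remaining genes named by rank were Parp11, Fam169b, Icam2, Stap1 and Pdf, which were higher by 0.50 to 0.70 on the log2 scale, and Napsa, Uri1, Enpp1, Rpap3, Hhat, Serpinb6a and Optn, whose log2 fold changes lay between -1.15 and -0.48. Their adjusted p values lay between 0.305 and 0.41.

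Some transcripts of myeloid cells were higher in the iNKT1 libraries. The summed level of the 22 listed markers was 569 to 999 CPM in iNKT1 libraries and 506 to 529 CPM in untreated libraries. Of 21 tested markers 13 had a positive fold change, 5 were higher and 0 lower without overlap (9.31% and 10.5% of all genes), and 0 were called by edgeR. Lyz2, S100a8 and S100a9 held nearly all of the gap between the sums. Lyz2, lysozyme of macrophages and granulocytes, had 176, 85.9 and 248 CPM in iNKT1 libraries and 40.9, 33.4 and 68.5 CPM in untreated libraries (adjusted p = 0.0232 by DESeq2 and 0.265 by edgeR without the 4 libraries). S100a8, a granulocyte and monocyte protein, had 93.1, 56.6 and 185 CPM in iNKT1 libraries and 50.2, 47 and 21.7 CPM in untreated libraries. Spi1, which encodes the myeloid factor PU.1, averaged 6.19 ± 1.9 CPM in iNKT1 libraries and 2.33 ± 0.408 CPM in untreated libraries (SD, n = 3 each). The other 8 tested markers had a negative fold change. Among these Itgam had 50.4, 54.1 and 35.3 CPM in iNKT1 libraries and 40.9, 51.4 and 54.9 CPM in untreated libraries, and Ctss, a lysosomal protease of antigen-presenting cells, averaged 118 ± 5.05 CPM in iNKT1 libraries and 121 ± 3.15 CPM in untreated libraries (SD, n = 3 each). None of the 21 tested markers was at 0 in both groups.

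Some genes named above, or called by DESeq2 or by edgeR without the 4 libraries, are also transcripts of myeloid cells. DESeq2 called Csf2rb, Pilra and Tlr8 higher (adjusted p = 0.0026, 0.00766 and 0.0326). Without the 4 libraries edgeR called Msr1, Cd5l and Ccl6 higher (adjusted p = 0.0274, 0.0274 and 0.0298). How many called genes, higher or lower, are of this kind was not counted. The values of Cybb, Tyrobp, App and Tlr1 stand beside them. Cybb, the catalytic subunit of the phagocyte NADPH oxidase, had 15.6, 17.1 and 40.5 CPM in iNKT1 libraries and 8.65, 8.81 and 9.6 CPM in untreated libraries, highest in the library with the highest myeloid sum. Tyrobp, the adaptor DAP12, averaged 8.39 ± 2.83 CPM in iNKT1 libraries and 3.46 ± 0.673 CPM in untreated libraries (SD, n = 3 each). App, the amyloid precursor protein, had 11.9, 11.5 and 13.4 CPM in iNKT1 libraries and 6.32, 7.25 and 5.25 CPM in untreated libraries, and Tlr1, a receptor for bacterial lipopeptides, had 32.6, 38.1 and 40.3 CPM in iNKT1 libraries and 21, 21.5 and 22.6 CPM in untreated libraries. The part of the myeloid transcripts in these 4 differences, in the other calls and in the difference of the interferon-stimulated genes was not tested. Transcripts of red cells and platelets summed to 44.1 to 108 CPM in iNKT1 libraries and 24.4 to 43.6 CPM in untreated libraries, and B and plasma cell transcripts to 43.5 to 52.6 CPM in iNKT1 libraries and 53.9 to 69.6 CPM in untreated libraries.

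The other iNKT subsets were compared with the same CD4 cells. Between iNKT1 and iNKT2 CD4 libraries 0 of 15031 genes were called by edgeR, 513 (3.41%) had an unadjusted p under 0.05, of which 224 (1.49%) were higher and 289 (1.92%) lower with iNKT1, and DESeq2 called 4. With 1 library left out the 513 became 282 to 1593, the highest without iNKT2 library 2. Between iNKT1 and iNKT17 CD4 libraries 0 were called, 334 (2.22%) had an unadjusted p under 0.05, of which 172 (1.14%) were higher and 162 (1.08%) lower with iNKT1, and DESeq2 called 6. With 1 library left out the 334 became 252 to 562, the highest without iNKT17 library 2. Cirbp averaged 54.5 ± 5.99 CPM in iNKT1 libraries, and its means were 76.9 CPM with iNKT2, 81.4 CPM with iNKT17 and 152 CPM in untreated libraries. Against iNKT2 its log2 fold change was -0.50 ± 0.23 (SE) at an unadjusted p of 0.0454, and against iNKT17 it was -0.58 ± 0.23 (SE) at an unadjusted p of 0.0228. Ctla4 averaged 124 CPM with iNKT1, 134 CPM with iNKT2, 115 CPM with iNKT17 and 221 CPM in untreated libraries. Dynll1 averaged 260 CPM with iNKT1, 244 CPM with iNKT2, 223 CPM with iNKT17 and 142 CPM in untreated libraries. The iNKT groups share the untreated libraries, so their differences from untreated cells are not independent of each other.

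A few genes separated the iNKT groups by rank without passing the test. Itgam, an integrin chain of myeloid and activated T cells, had 50.4, 54.1 and 35.3 CPM in iNKT1 libraries and 18.3, 23.7 and 25.9 CPM in iNKT2 libraries. Cdc25b, a phosphatase that promotes entry into mitosis, had 267, 336 and 264 CPM in iNKT1 libraries and 143, 192 and 174 CPM in iNKT2 libraries. Izumo1r, the folate receptor 4 of regulatory T cells, had 55.8, 43.5 and 80.5 CPM in iNKT1 libraries and 119, 100 and 104 CPM in iNKT2 libraries, and Gpr83, another gene of regulatory T cells, had 7.41, 5.29 and 8.14 CPM in iNKT1 libraries and 16.7, 15 and 11.7 CPM in iNKT2 libraries. All 4 had an adjusted p of 0.872. Against iNKT17, Coro2a, a coronin, had 117, 124 and 130 CPM in iNKT1 libraries and 170, 150 and 172 CPM in iNKT17 libraries, with an adjusted p of 1.

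**Figure D4:**
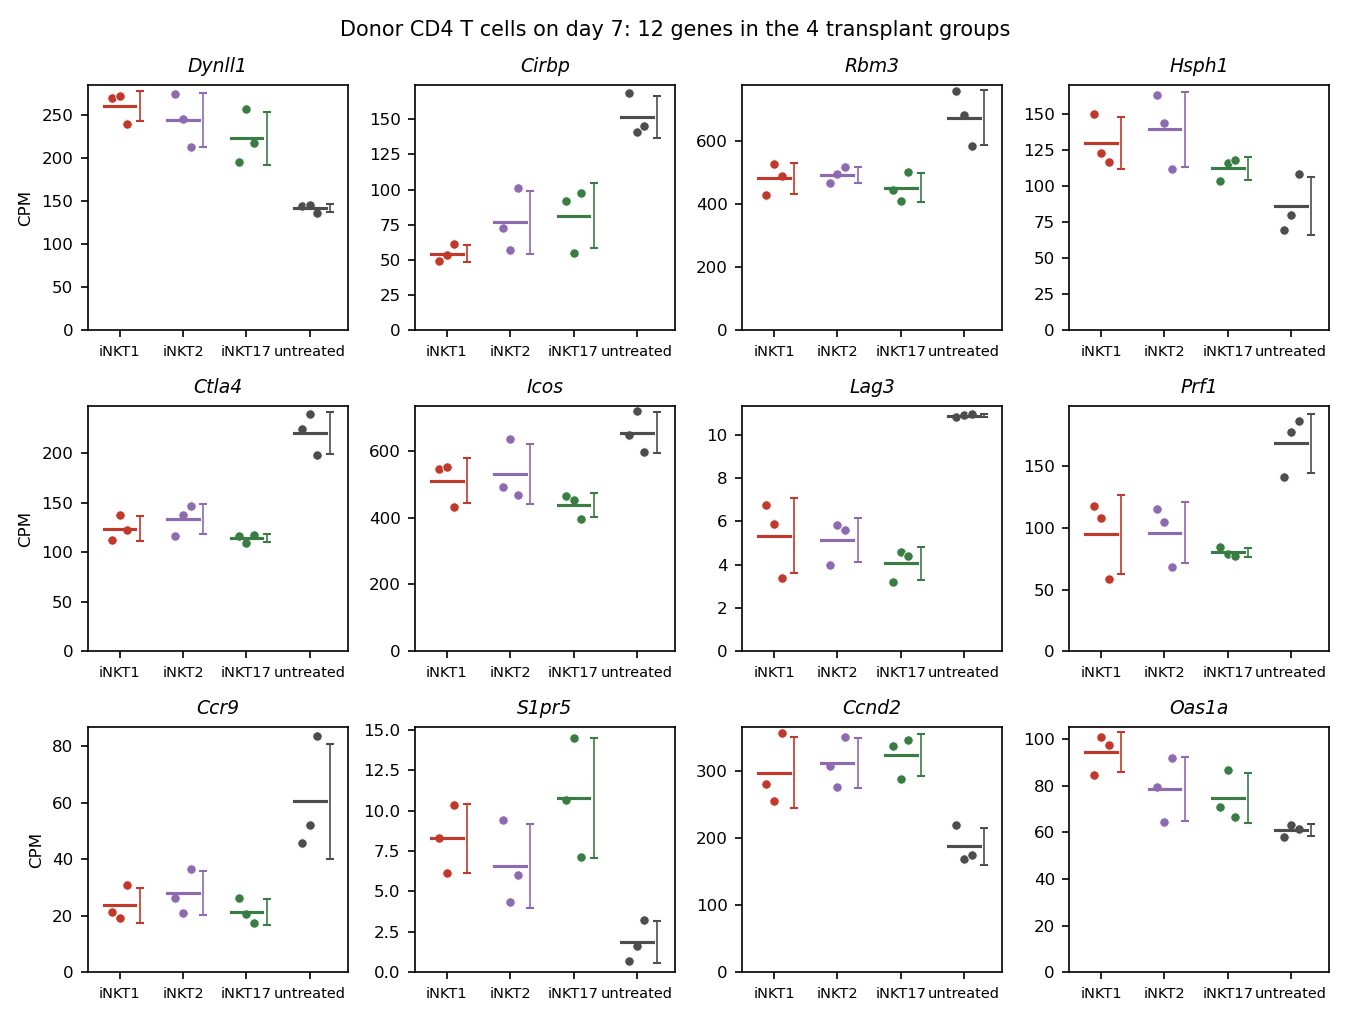
CPM of 12 genes in the 3 CD4 libraries of each day 7 group (points), with group mean (line) and SD (bar) and each axis starting at 0. The iNKT1 and untreated libraries do not overlap in any of the 12 genes, and the iNKT2 and iNKT17 means lie on the iNKT1 side of the untreated mean.

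CD8 T cells sorted from the same transplant groups gave the same measure in libraries that did not enter the ranking of genes in CD4 cells. Among the 24 genes named by rank in CD4 cells, 12 in each direction, 22 had the same sign in CD8 cells, beside 68.4% of the 14995 genes tested in both fits. Without overlap between the 3 iNKT1 and 3 untreated CD8 libraries, 18 of the 24 had the same sign, beside 15.6% of all genes. Of the 1005 genes with an unadjusted p under 0.05 in CD4 cells, 85.2% had the same sign in CD8 cells, and 42.8% had it without overlap. CD4 and CD8 libraries may come from the same mice, which the labels do not say. In CD8 cells edgeR called 7 of 15601 genes (0.0449%), and Cirbp and Ctla4 were among them. Cirbp fell to 61.7 CPM in iNKT1 CD8 libraries, against 157 CPM in untreated CD8 libraries (means, log2 fold change -1.35 ± 0.21 SE, adjusted p = 0.0129). Ctla4 fell to 88.8 CPM in iNKT1 CD8 libraries, against 144 CPM in untreated CD8 libraries (log2 fold change -0.70 ± 0.13 SE, adjusted p = 0.0388).

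The chaperones were also mostly higher in CD8 cells, and the list of cold-induced and serine/arginine-rich RNA-binding proteins was mixed. Of the 20 chaperones 16 had a positive fold change there, with a median log2 fold change of 0.198, and 7 were higher and 0 lower without overlap, beside 8.88% and 9.04% of all genes. Hsph1 averaged 175 CPM in iNKT1 CD8 libraries and 102 CPM in untreated CD8 libraries (adjusted p = 0.0879), and Srsf7 averaged 105 CPM in iNKT1 CD8 libraries and 47.4 CPM in untreated CD8 libraries (adjusted p = 0.0989). Of the 17 members of the RNA-binding list 9 had a positive fold change in CD8 cells, with a median of 0.0379, and 6 were higher and 3 lower without overlap. Cybb and App did not lie alike. Cybb averaged 6.87 CPM in iNKT1 CD8 libraries and 7.62 CPM in untreated CD8 libraries, and App averaged 4.58 CPM in iNKT1 CD8 libraries and 5.15 CPM in untreated CD8 libraries. The myeloid list had 7 of 21 positive members in CD8 cells and a median log2 fold change of -0.131. The cell cycle list had 32 of 44 positive members in CD8 cells, with a median of 0.148. The test of the difference itself, the iNKT1 effect in CD4 cells minus that in CD8 cells, called 0 of 15601 genes by edgeR, with 377 (2.42%) at an unadjusted p under 0.05, and 3 by DESeq2. Of the 377, the difference was positive for 249 (1.6%) and negative for 128 (0.82%).

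**Figure D5:**
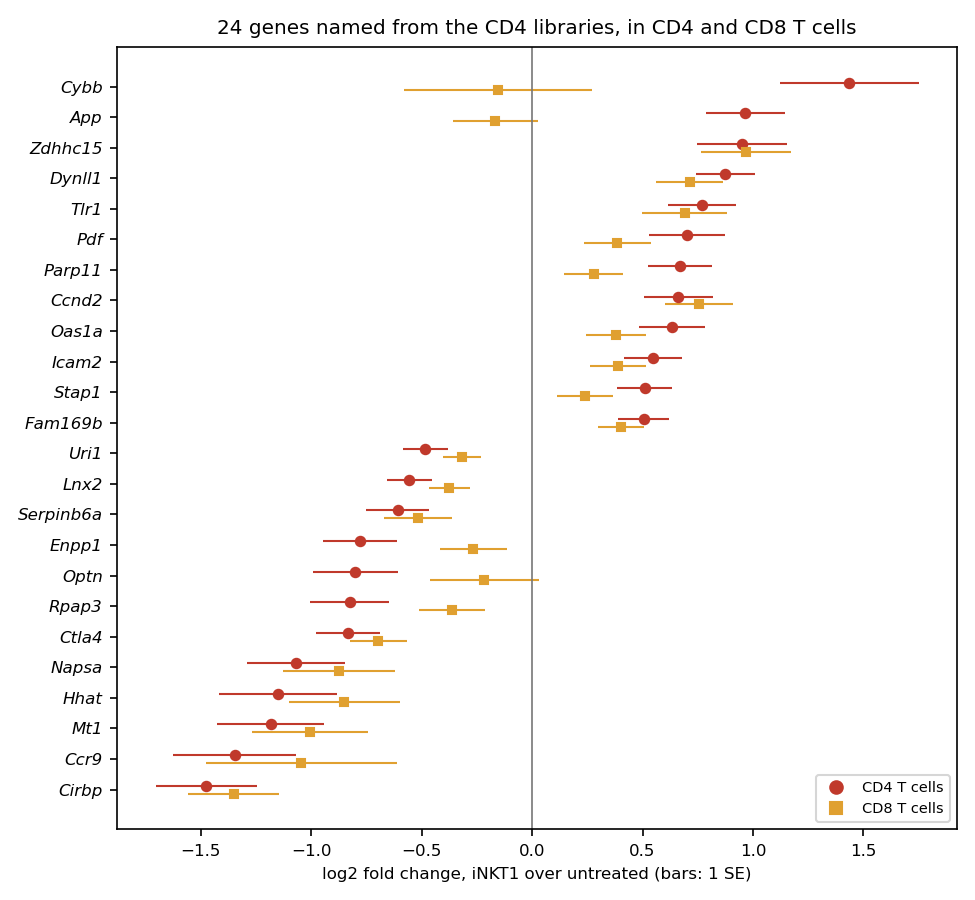
Log2 fold change, iNKT1 over untreated, with 1 SE, of the 24 genes named by rank in CD4 cells, in CD4 (circles) and CD8 cells (squares). In 22 genes both points lie on the same side of 0, and Cybb and App are the exceptions.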

How the data were processed

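Raw counts per gene were deposited by the authors as 1 table of 30 donor T cell libraries. Per the labels' protocols, RNA was extracted with TRIzol, full-length cDNA was made with a SMARTer kit, and Nextera XT libraries were sequenced as 75 bp paired ends on an Illumina HiSeq instrument. The submitters' processing notes name STAR 2.5.4, DESeq2 1.22.2 and the builds mm10 and GRCm38. How strand was handled in counting is not given in the sources used here. The table holds 35661 gene IDs, of which 98.2% matched a symbol.

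Counts were analysed as deposited with edgeR 4.0.16 in R 4.3.3 (genes with few counts removed with filterByExpr, TMM scaling, robust quasi-likelihood fit). The main fit held 15 CD4 libraries in 5 groups and 15031 genes, and the CD4 against CD8 fit held 30 libraries and 15601 genes. A gene was called at a Benjamini-Hochberg adjusted p under 0.05. DESeq2 1.42.0 was an alternative. CPM use TMM-scaled totals. No 2 libraries agreed within sampling noise.

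The members and the 33 gene lists were chosen with earlier results of these data known. Named by rank were the 12 genes in each direction with the smallest p among those whose log2 CPM averaged 3 or more over the 6 libraries and that had ranges that did not overlap, leaving out predicted genes, pseudogenes, ribosomal protein, mitochondrially encoded, immunoglobulin, T cell receptor and Y-linked genes and Xist. The largest fold changes among called genes would have come first, but none was called. Up to 4 genes per list with the smallest p, a fixed set of key T cell genes and 4 genes per direction in the other comparisons were added. Other genes were named after their values were seen. Ranges that do not overlap are those of the 3 CPM values per group. With 3 libraries against 3, an exact permutation test cannot go below p = 0.1, so none was used. Upstream sequences and gene positions are RefSeq's for GRCm38.p6, matched by symbol. The 6 libraries hold 25323879 to 34698168 counts, and precision is limited by the 3 libraries per group. Some genes of the lists and of the fixed set are not reported here.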

Additional observations from a re-analysis of the deposited data

Results flagged for a closer look

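The iNKT1 effect on Klf12, a Krüppel-like transcription factor, lay in opposite directions in the donor T cell classes. Klf12 had 26, 30 and 25 CPM in iNKT1 CD4 libraries and 22.5, 23.2 and 22.2 CPM in untreated CD4 libraries. It had 18, 17.6 and 14.3 CPM in iNKT1 CD8 libraries and 21, 19.6 and 20.3 CPM in untreated CD8 libraries. All iNKT1 libraries lay above the untreated ones in CD4 cells and below them in CD8 cells. The difference between the effects, CD4 minus CD8, was 0.522 ± 0.169 (SE, log2), with an unadjusted p of 0.00499 and an adjusted p of 1 by edgeR. Klf12 was named for its small p in this comparison, so that p is of a gene chosen for the difference.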

How the results depend on the processing

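The number of genes called between iNKT1 and untreated CD4 cells was 0 with RLE size factors, with no low-count filter, with the 12 day 7 CD4 libraries alone and with each library left out in turn (0 to 0). It was 123 with DESeq2, 3 with the compared groups alone (Cirbp, Dynll1 and Zdhhc15) and 2 with a replicate block (Cirbp and Ms4a4c). In settings chosen after seeing the data, it was 84 with the day 7 CD4 libraries without the 4 that stood apart. With DESeq2 on the 6 compared libraries, also chosen after seeing the data, it was 341. The cause was not tested. DESeq2 also called 4 genes against iNKT2, 6 against iNKT17 and 3 for the CD4 minus CD8 difference, while edgeR called 0 in every other setting run for these, libraries left out included (0 to 0). Deviations of same-numbered libraries correlated at -0.09, 0.13 and 0.083 over genes with a mean CPM above 5. Those of differently numbered libraries correlated at -0.21 to 0.17. The columns carry numbers but no experiment name, so the main fit did not pair libraries. An experiment shared by a number cannot be told apart from the spread. Of the named genes' values under the alternatives, 1908 kept direction and side of the threshold, 131 passed it and 17 turned direction, none of them called. Log2 fold changes with each library left out in turn ranged from -0.78 to 0.68 for Il4, from -0.23 to 0.25 for Ifng, from -0.34 to 0.13 for Mki67, from -0.63 to 0.86 for Cd8a, from -0.23 to 0.39 for Tnf, from -0.0084 to 0.63 for Gata3, from -3.20 to 3.95 for Zbtb16, from -0.0038 to 0.14 for Tcf7 and from -0.20 to 0.22 for Foxp3. With the block Il4 had -0.015. Without the 4 libraries Cd8a had 0.87 and Tnf -0.16. The cause was not tested. Precision is limited by 3 libraries per group.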
